A study of Mus musculus with 12 samples.

Results

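The mitochondrial genome of the mouse was measured here as 37 genes, all rows of the deposited count table that lie on the chromosome named MT, out of 78317 gene rows in all. They are 2 ribosomal RNA (rRNA) genes, 22 transfer RNA (tRNA) genes and 13 protein genes. The libraries came from total RNA of heart ventricle of C57BL/6J mice, sequenced in bulk. Of the 12 animals, 6 had a father whose heart was cryoinjured (frozen locally) at postnatal day 1, and 6 had an uninjured father. All 12 offspring were themselves uninjured, and the labels name no transgene or drug. The labels give a collection age of 3 wpp and also call the offspring adult. They count 3 males in the injured-sire group and 4 in the uninjured-sire group, with 3 and 2 females, but do not tie a sex, father or litter to a library. The p-values below therefore measure the spread between these libraries, some of which may share a litter. The comparison asks whether injury of the father's heart soon after birth goes with a different RNA level in the offspring's heart.

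Totals ran from 30537315 to 42090257 counts per library. Replicate 16 of the injured-sire group stands apart: the labels name it an outlier that the submitters left out of their later analyses, and the comparison here used the other 5 injured-sire and the 6 uninjured-sire libraries. Its values are given beside many of the results on single genes and shares. All 8 cardiomyocyte markers were measured in the ventricle libraries, and their summed level was 64385 to 75774 CPM (counts per 1e6 counts of the library) in the injured-sire group and 62037 to 69699 CPM in the uninjured-sire group.

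The mitochondrial genome is a small circle that is transcribed from both strands into long precursor RNAs. In many places tRNAs sit between the rRNAs and the messenger RNAs, and cutting out the tRNAs frees the RNAs on either side. The rRNAs build the mitochondrial ribosome, the tRNAs serve it, and the proteins are core subunits of respiratory complexes I, III and IV and of ATP synthase, which heart muscle uses heavily. Of the 37 genes, 2 rRNA, 14 tRNA and 12 protein genes are on the plus strand, and 8 tRNA genes and mt-Nd6 are on the minus strand. Precursor RNAs pass through several genes, so the genes are not independent measurements.

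The sequences below are those of the genes on which the results turn, from GENCODE M21 transcripts, 5′ to 3′ on the gene's own strand with T for U. All 37 genes have the same position in that release as in the counted annotation, Ensembl release 114 of GRCm39. mt-Ti, the tRNA for isoleucine, lies on the plus strand at MT:3706-3774, between mt-Nd1 (MT:2751-3707) and mt-Tm (MT:3845-3913), the tRNA for methionine. mt-Tq, the tRNA for glutamine, lies on the minus strand at MT:3772-3842. mt-Ti shares 2 bases with the end of mt-Nd1. Capitals mark the anticodon in the tRNAs and the shared bases in mt-Nd1, of which the last 40 bases are shown.
mt-Nd1: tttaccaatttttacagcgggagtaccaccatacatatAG
mt-Ti: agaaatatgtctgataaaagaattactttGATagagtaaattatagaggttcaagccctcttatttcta
mt-Tq: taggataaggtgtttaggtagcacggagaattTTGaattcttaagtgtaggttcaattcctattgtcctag
mt-Tm: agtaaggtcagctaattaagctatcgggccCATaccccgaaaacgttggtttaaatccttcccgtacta

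mt-Rnr1, the RNA of the small mitochondrial ribosomal subunit, lies on the plus strand at MT:70-1024. Its first and last 60 bases are shown, because it was the rRNA called lower in the offspring of injured males.
mt-Rnr1 first 60: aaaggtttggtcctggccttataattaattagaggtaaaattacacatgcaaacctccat
mt-Rnr1 last 60: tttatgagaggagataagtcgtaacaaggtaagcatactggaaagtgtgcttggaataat

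Another set of sequences bears on protein genes with few or no counts. A long run of the mitochondrial genome, from base 6394 to base 11042 (4649 bases), has copies annotated as genes of chromosome 1 (1:24650616-24655278 in GRCm39, minus strand). Reads that fit several places equally were not counted, so reads from identical stretches may be missing. mt-Co2, a complex IV subunit, and its chromosome 1 copy Gm28661 aligned over 681 bases with 0 substitutions, and the first 60 bases of each are shown in capitals because they are identical.
mt-Co2: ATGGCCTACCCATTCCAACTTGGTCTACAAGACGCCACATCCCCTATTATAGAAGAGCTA
Gm28661: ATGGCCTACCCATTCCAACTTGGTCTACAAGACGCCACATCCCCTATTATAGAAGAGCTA
mt-Nd3, a complex I subunit, differed from its copy Gm28438 by 1 substitution in 345 bases, T3C (mt-Nd3 has the first letter and the copy the last, counted from 1 at the 5′ end of the gene). The capitals mark that base.
mt-Nd3: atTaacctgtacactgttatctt
Gm28438: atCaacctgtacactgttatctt
mt-Co1, the catalytic subunit of complex IV, runs into the copied stretch only in its later part. The capitals mark where the run shared with its copy Gm29216 begins.
mt-Co1: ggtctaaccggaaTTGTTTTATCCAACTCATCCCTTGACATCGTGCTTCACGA
Gm29216: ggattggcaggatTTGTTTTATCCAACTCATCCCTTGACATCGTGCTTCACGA

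Mitochondrial genes took a large share of each library, 16.5% to 18.4% of all counts in the injured-sire group and 16.5% to 19.4% in the uninjured-sire group. The ranges overlapped, and replicate 16 had 20.1%. Protein genes made up nearly all of it. They held 15.4% to 17.2% of all counts in the injured-sire group and 15.2% to 18.1% in the uninjured-sire group. Replicate 16 was above both ranges, at 18.4%. These libraries are bulk tissue, so fewer cells of a type and less RNA per cell cannot be told apart.

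Levels between genes are compared per length, as CPM per kb of gene averaged over the 11 libraries. mt-Co1 was highest at 36505 CPM per kb. Cytochrome b (mt-Cytb, complex III) followed at 29675 CPM per kb, and the complex I subunit mt-Nd1 at 22960 CPM per kb. The complex I subunits mt-Nd2, mt-Nd5 and mt-Nd4 stood at 15994, 14315 and 9901 CPM per kb. mt-Co1 and mt-Nd4 lie partly in the copied stretch, with 1066 and 502 bases outside it, and reads from their copied parts may have gone uncounted. The rRNAs were below these 6 protein genes, mt-Rnr2 (large ribosomal subunit) at 5694 CPM per kb and mt-Rnr1 at 3822 CPM per kb. How the libraries were enriched for or depleted of RNA classes is not given in the sources used here. This order and the differences in rRNA counts below are therefore those of the libraries. The part of enrichment or depletion in those differences was not tested.

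**Figure D1:**
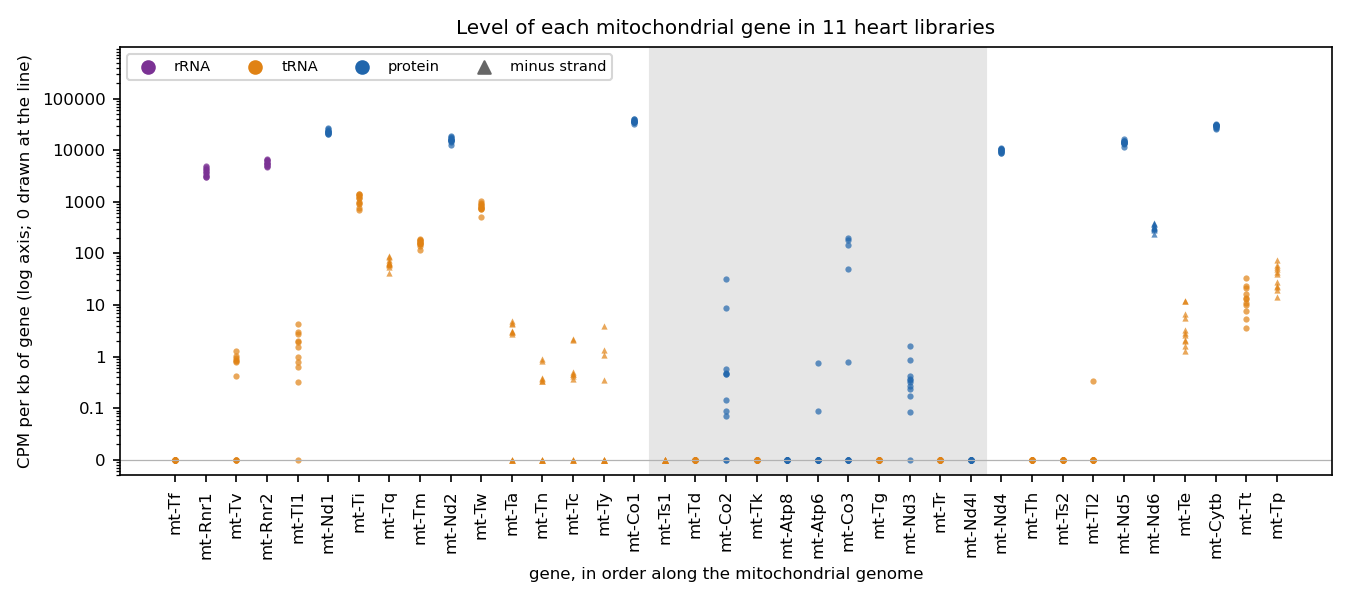
CPM per kb of gene (log axis, with 0 drawn at the line) for the 37 mitochondrial genes in order along the genome, 1 point per library for the 11 libraries compared; triangles are minus-strand genes and the grey band holds the 11 genes inside the stretch copied on chromosome 1. The protein genes outside the band are the highest, apart from mt-Nd6, and the band holds mostly points at or near 0.

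The strands were very unequal. Minus-strand genes took 0.0778% to 0.113% of mitochondrial counts in the injured-sire group and 0.0805% to 0.112% in the uninjured-sire group. Replicate 16 was above both ranges at 0.141%. Nearly all minus-strand counts came from mt-Nd6, the only minus-strand protein gene and a complex I subunit, at 323 CPM per kb. mt-Nd6 measured 170, 190, 160, 168 and 125 CPM in injured-sire replicates 12, 13, 14, 15 and 17, and from 145 CPM over a median of 172 to 201 CPM in the uninjured-sire group. Both groups covered nearly the same range, and the edgeR test across all genes gave a log2 fold change of -0.09 ± 0.104 (SE, adjusted p = 0.873). In replicate 16 mt-Nd6 stood at 296 CPM.

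The tRNAs were recorded unevenly along the genome. The 22 tRNA genes are 59 to 75 bases long. A read is counted for a tRNA only if it touches no other gene on the same strand, so the room between its neighbours on that strand bounds the reads that can be counted. In 8 plus-strand tRNAs this room was 58 to 75 bases, and their highest count in any library was 10. Of these 8, mt-Tk, mt-Tg and mt-Tr lie inside the copied stretch. In 4 plus-strand tRNAs it was 137 to 376 bases. Of these, mt-Ti (1104 CPM per kb), mt-Tw for tryptophan (799 CPM per kb) and mt-Tm (162 CPM per kb) had the highest CPM per kb of any tRNA gene. They had up to 4009 counts, while mt-Td for aspartate, inside the copied stretch, was listed at 0 throughout. CPM per kb divides by gene length and not by this room, so it does not rank the amounts of the tRNAs. The room was not measured across the point where the circle is cut open for numbering. It is therefore not given for mt-Tf (0 counts) and mt-Tt (10 to 77 counts), nor for mt-Tq and mt-Tp on the minus strand. On the minus strand the highest count of the 8 tRNAs was 233, for mt-Tq. Wide room did not go with high counts there: mt-Ta (alanine), mt-Te and mt-Ty (tyrosine) had 1246, 1285 and 1612 bases and at most 11, 34 and 11 counts, and mt-Ts1 (serine), inside the copied stretch, had 8225 bases and 0 counts. A count for a tRNA gene may come from the mature tRNA or from a precursor that spans it, and the table does not tell them apart.

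In all, 17 mitochondrial genes passed the filter on low counts: 2 rRNA, 6 tRNA and 9 protein genes. The other 20 did not. Of these, 10 had 0 counts in all 12 libraries (8 tRNAs, mt-Atp8 and mt-Nd4l), and the highest count among the rest was 34, for mt-Te, the tRNA for glutamate. A count of 0 allows up to 3 counts, or 0.0713 to 0.0982 CPM before TMM scaling depending on the library. This limit covers counting error only and says nothing of reads that were left out because they fit several places.

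Without replicate 16, the offspring of injured males had lower mt-Rnr1 and mt-Ti. mt-Rnr2 and the 7 fitted protein genes other than mt-Co2 and mt-Co3 did not pass the test. With replicate 16 included, 0 mitochondrial genes passed. In the main comparison, without replicate 16, the calls were 2 of 17 mitochondrial genes, both lower, at an adjusted p under 0.05 in edgeR's quasi-likelihood test. Over all 17130 genes tested, 0.105% were called in either direction and 0.0525% were called lower. At an unadjusted p under 0.05 there were 6 of the 17 mitochondrial genes, mt-Co2 among them, against 8.96% of all genes. Among the 17 fitted genes 14 had a log2 fold change below 0, with a median of -0.12. Without mt-Co2 and mt-Co3 it was 12 of 15, with a median of -0.09. Over all genes 49.9% were below 0.

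**Figure D2:**
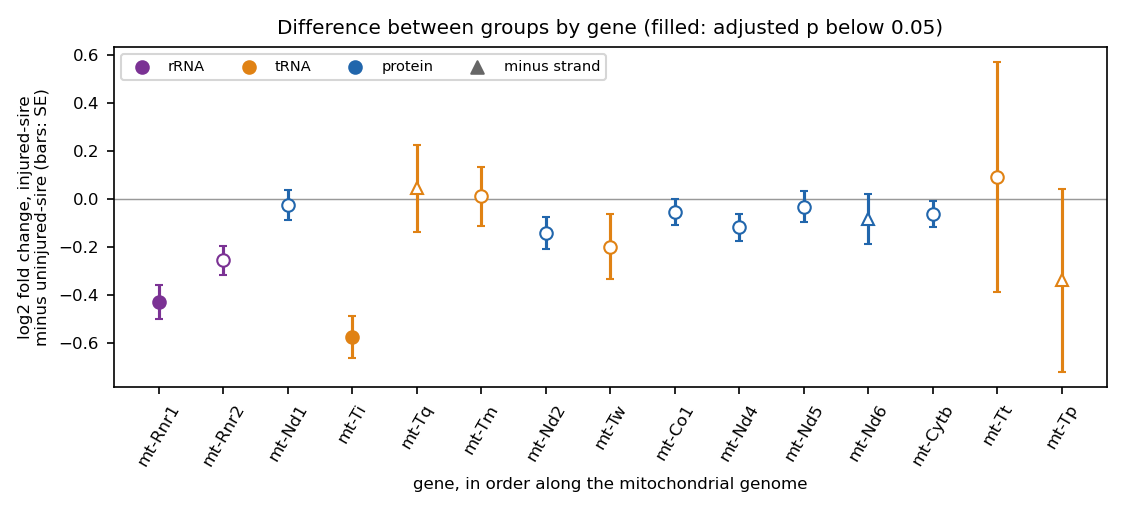
Log2 fold change (injured-sire minus uninjured-sire, with SE bars) of 15 mitochondrial genes that passed the filter, in order along the genome, coloured by class, with mt-Co2 and mt-Co3 left out for their copies on chromosome 1. Filled points, mt-Rnr1 at -0.43 and mt-Ti at -0.58, have an adjusted p under 0.05.

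mt-Rnr1 measured 2887, 2856, 2998, 3428 and 3171 CPM in injured-sire replicates 12, 13, 14, 15 and 17. In the uninjured-sire group it ran from 3556 CPM over a median of 4143 to 4743 CPM. Every injured-sire library compared was below every uninjured-sire library. The means were 3068 ± 236 CPM (SD, n = 5) and 4135 ± 458 CPM (SD, n = 6), and the difference was -0.43 ± 0.0700 on the log2 scale (SE, adjusted p = 0.0107 in edgeR). Replicate 16, outside this comparison, stood at 4538 CPM, inside the uninjured-sire range. With all 12 libraries the log2 fold change was -0.32 with an edgeR adjusted p of 0.439, so this call depends on leaving replicate 16 out. It was also lost without injured-sire replicate 13 (-0.41, edgeR adjusted p = 0.0621) or replicate 14 (-0.42, edgeR adjusted p = 0.0505).

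mt-Rnr2 comes from the same precursor and follows mt-Rnr1 after the valine tRNA. It measured 8901, 7734, 7625, 8637 and 7806 CPM in injured-sire replicates 12, 13, 14, 15 and 17. In the uninjured-sire group it ran from 8409 CPM over a median of 9990 to 10744 CPM. The groups overlapped, since injured-sire replicates 12 and 15 were above uninjured-sire replicate 21. The log2 fold change was -0.26 ± 0.0612 (SE), and it did not pass at an edgeR adjusted p of 0.116. It passed with the DESeq2 Wald test (adjusted p = 0.0133). Replicate 16 was the highest of all libraries at 12670 CPM.

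mt-Ti measured 48.7, 52.3, 66.3, 70.0 and 63.3 CPM in injured-sire replicates 12, 13, 14, 15 and 17. In the uninjured-sire group it ran from 80.7 CPM over a median of 90.6 to 97.6 CPM. The groups did not overlap. The means were 60.1 ± 9.22 CPM (SD, n = 5) and 89.6 ± 7.42 CPM (SD, n = 6), and the difference was -0.58 ± 0.0873 on the log2 scale (SE, adjusted p = 0.0107 in edgeR). Leaving out each of the 11 libraries in turn kept mt-Ti past the threshold every time. Replicate 16 stood at 80.8 CPM, at the lower edge of the uninjured-sire range, and with all 12 libraries the log2 fold change was -0.49 with an edgeR adjusted p of 0.105.

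**Figure D3:**
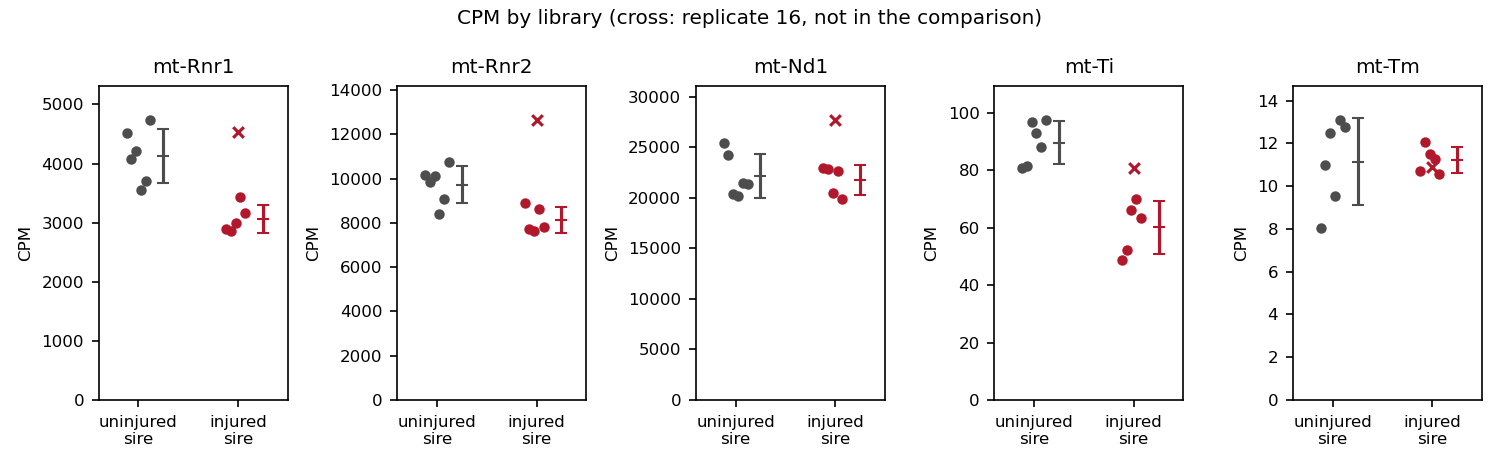
CPM per library of mt-Rnr1, mt-Rnr2, mt-Nd1, mt-Ti and mt-Tm in the 6 uninjured-sire and 5 injured-sire libraries, with mean and SD beside the points and replicate 16 as a cross. mt-Rnr1 and mt-Ti do not overlap between the groups compared, mt-Rnr2, mt-Nd1 and mt-Tm do, and the cross lies within or above the uninjured-sire points.

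The genes on either side of mt-Ti did not pass the test. mt-Nd1, whose end overlaps mt-Ti, measured 22950, 22839, 20506, 22677 and 19838 CPM in injured-sire replicates 12, 13, 14, 15 and 17. In the uninjured-sire group it ran from 20128 CPM over a median of 21417 to 25398 CPM. The ranges overlapped, with uninjured-sire replicates 18 and 19 above every injured-sire library and injured-sire replicate 17 below every uninjured-sire library. The groups differed by -0.03 ± 0.0624 on the log2 scale (SE, adjusted p = 0.949 in edgeR). Replicate 16 had the highest mt-Nd1 of all 12 libraries, at 27720 CPM. mt-Tm, which follows on the same strand, measured 10.7, 12.0, 11.5, 11.2 and 10.6 CPM in the same 5 libraries and 8.02 to 13.1 CPM in the uninjured-sire group, around a median of 11.7 CPM. All 5 injured-sire values lay inside the uninjured-sire range, as did replicate 16 at 10.9 CPM (log2 fold change 0.01 ± 0.122, SE, edgeR adjusted p = 0.992). mt-Tq, on the opposite strand and overlapping mt-Ti by a few bases, measured 6.13, 4.60, 4.39, 4.82 and 3.88 CPM in those libraries and 2.93 to 6.39 CPM in the uninjured-sire group, around a median of 4.51 CPM. Its log2 fold change was 0.04 ± 0.181 (SE, edgeR adjusted p = 0.970), and replicate 16 stood at 5.74 CPM. The signs of mt-Nd1, mt-Tm and mt-Tq changed when single libraries were left out.

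The neighbours of mt-Rnr1 give no comparison, because mt-Tf before it was listed at 0 in all libraries and mt-Tv after it reached 3 counts at most. Of the other fitted tRNAs, mt-Tw measured 59.8, 49.9, 53.8, 50.4 and 33.6 CPM in injured-sire replicates 12, 13, 14, 15 and 17 and 48.8 to 68.3 CPM in the uninjured-sire group. Its log2 fold change was -0.20 ± 0.136 (SE, edgeR adjusted p = 0.738), and replicate 16 was the highest of all 12 libraries at 70.9 CPM. mt-Tp for proline and mt-Tt for threonine had 33 to 176 and 10 to 77 counts per library, and their log2 fold changes of -0.34 ± 0.381 and 0.09 ± 0.479 (SE) are too imprecise to show a difference of the size seen for mt-Ti.

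Ratios within a library do not depend on the library's scaling. For every 100 counts per kb of mt-Nd1, mt-Rnr1 had 12.5 to 16.02 counts per kb in the injured-sire group and 16.9 to 22.3 in the uninjured-sire group, with no overlap, and replicate 16 had 16.4. mt-Rnr2 had 20.5 to 23.8 and 24.2 to 30.4 on the same measure, also without overlap, and replicate 16 had 27.6. The ratio of the rRNAs to each other only just failed to overlap. mt-Rnr1 per 100 of mt-Rnr2, per kb, was 53.7 (replicate 12) to 67.3 in the injured-sire group and 67.6 to 73.6 in the uninjured-sire group. Replicate 16 had 59.3, inside the injured-sire range. mt-Ti per count of mt-Tm was 4.34 to 6.23 and 6.73 to 10.1, and replicate 16 had 7.42. mt-Ti per 1000 counts of mt-Nd1 overlapped, at 2.12 to 3.23 against 3.18 to 4.75, and replicate 16 had 2.91, inside the injured-sire range. These ratios are described without a test.

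**Figure D4:**
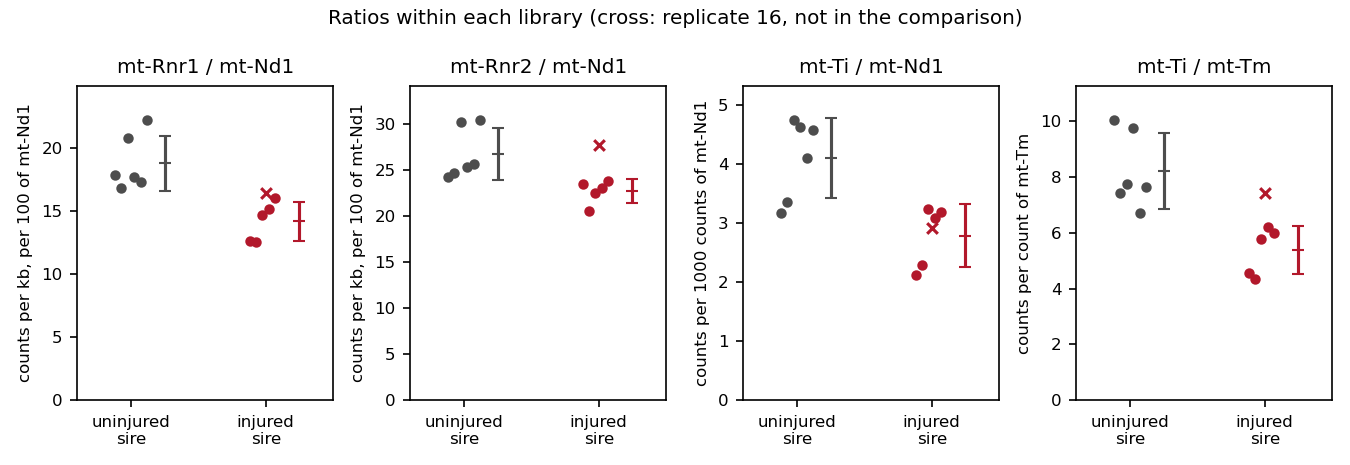
Ratios of counts within each library, with mean and SD beside the points and replicate 16 as a cross: mt-Rnr1 and mt-Rnr2 per 100 of mt-Nd1 (per kb), mt-Ti per 1000 of mt-Nd1, and mt-Ti per count of mt-Tm. The groups are apart in all panels but mt-Ti per mt-Nd1, where the ranges meet at 3.18 to 3.23.

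By class, described without a test, rRNAs took 1.06% to 1.226% of all counts in the injured-sire group and 1.2296% to 1.55% in the uninjured-sire group. The groups only just failed to overlap, and replicate 16 had 1.60%. tRNAs took 0.0112% to 0.0145% and 0.0152% to 0.0189%, mostly mt-Ti and mt-Tw, and replicate 16 had 0.0162%. This share includes the called mt-Ti, while the 5 other fitted tRNAs overlapped between the groups, with edgeR adjusted p of 0.738 to 0.992. As a share of mitochondrial counts alone, rRNAs took 6.06% to 6.72% in the injured-sire group and 6.88% to 8.38% in the uninjured-sire group, and replicate 16 had 7.97%. tRNAs overlapped on this scale, at 0.0683% to 0.0806% against 0.0782% to 0.102%. When change was measured relative to the summed mitochondrial counts, mt-Rnr1 had a log2 fold change of -0.35 (edgeR adjusted p = 0.0629) and mt-Ti one of -0.50 (edgeR adjusted p = 0.0851). That sum left out mt-Co2 and mt-Co3, kept mt-Rnr1 and mt-Ti, and took no TMM factor. Neither gene passed on that scale, so a difference relative to this sum was not shown at this threshold.

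The protein genes outside the copied stretch, or partly outside it, moved little. mt-Co1, the highest of them per kb, measured 58097, 54555, 53541, 56612 and 53244 CPM in injured-sire replicates 12, 13, 14, 15 and 17. In the uninjured-sire group it ran from 49770.3 CPM over a median of 57894 to 62511 CPM. The injured-sire values all lay inside that range, and the groups differed by -0.06 ± 0.0547 on the log2 scale (SE, adjusted p = 0.826 in edgeR). Replicate 16 had the highest mt-Co1 of all 12 libraries, at 65907 CPM. The 7 protein genes apart from mt-Co2 and mt-Co3 had log2 fold changes from -0.14 (mt-Nd2) to -0.03 (mt-Nd1), with a median of -0.06 and edgeR adjusted p of 0.539 to 0.949. All 7 were below 0 with the usual scaling, but mt-Nd1, mt-Co1, mt-Nd5 and mt-Cytb were above 0 relative to the summed mitochondrial counts, and mt-Nd1 and mt-Nd6 were above 0 with replicate 16 included. Among them, mt-Nd2 and mt-Nd4 had the largest differences, -0.14 ± 0.0667 and -0.12 ± 0.0557 (SE).

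The copied stretch holds 11 genes whole: 6 protein genes and 5 tRNAs. Of the 11, 7 had 0 counts in all 12 libraries, and together they took at most 0.0791% of mitochondrial counts in any library. Outside it, 3 of 24 genes were at 0 throughout, and the lowest count of any protein gene there was 4241. The share of a gene's 50-base words that also occur in another annotated transcript was 100% for mt-Co2, 99.9% for mt-Co3, 99.5% for mt-Atp6 (ATP synthase), 98.8% for mt-Nd4l and 98.0% for mt-Nd3. It was 62.2% for mt-Nd4, 51.1% for mt-Co1, 8.19% for mt-Nd2 and 7.61% for mt-Nd5. mt-Nd1, mt-Nd6, mt-Cytb, mt-Rnr1 and mt-Ti shared no such word. Neither did mt-Atp8 and the 5 tRNAs of the stretch, which were all at 0 throughout. The search did not cover sequence outside annotated transcripts. The part of the copies in the low counts was not tested, and the counts of the 11 genes are not read as RNA levels here.

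mt-Co3, a complex IV subunit, was counted in an all-or-none way. It had 1520, 0, 0, 25 and 3950 counts in injured-sire replicates 12, 13, 14, 15 and 17, and 0 in replicate 16. In the uninjured-sire group it had 5456 and 4769 counts in replicates 18 and 19 and 0 in the other 4. Presence and absence fell in both groups, and the edgeR log2 fold change of -0.67 ± 2.09 (SE, adjusted p = 0.962) has no useful precision. Its copy Gm28437, which matched it over 783 bases with 0 substitutions, had 1871 counts in replicate 16, 1043 in replicate 20 and 1329 in replicate 23, and 1 to 8 in the other 9 libraries. No library had high counts of both.

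mt-Co2 had 902 counts in uninjured-sire replicate 20 and 218 in replicate 22, and at most 13 in the other 10 libraries. Its copy Gm28661 had 950 counts in injured-sire replicate 12 and at most 21 elsewhere. The edgeR log2 fold change of mt-Co2, -5.00 ± 1.89 (SE, adjusted p = 0.464), rests on those 2 uninjured-sire libraries. Gm28439, which matches the first 876 bases of mt-Nd4 with 0 substitutions, had 507 to 874 counts in replicates 15, 16, 18, 19, 21 and 22 and 3 to 21 in the other 6. mt-Nd4 itself had 418872 to 610035 counts per library. How many of its reads went uncounted over the shared part is not known from the table.

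**Figure D5:**
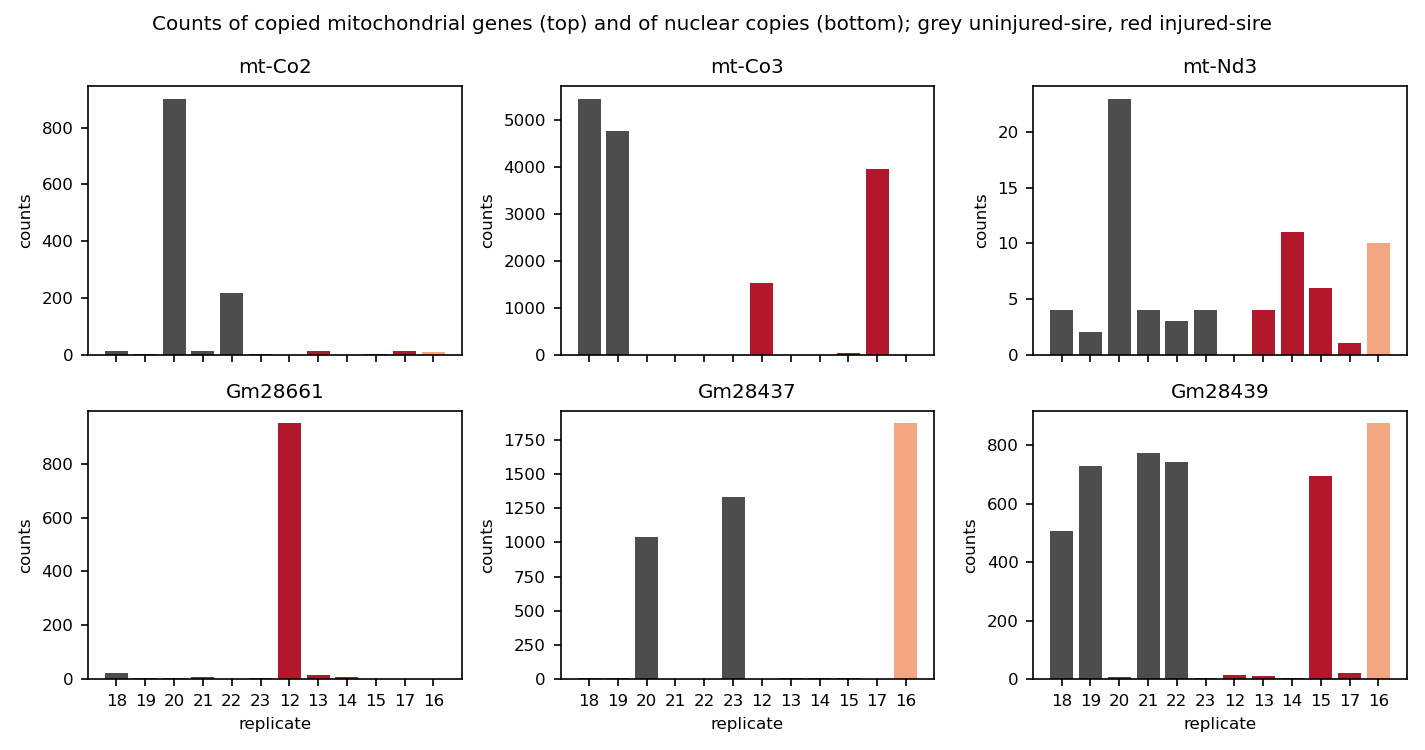
Counts per library (bars; grey uninjured-sire replicates 18 to 23, red injured-sire replicates, light red replicate 16) of mt-Co2, mt-Co3 and mt-Nd3 in the top row and of the chromosome 1 copies Gm28661 (of mt-Co2), Gm28437 (of mt-Co3) and Gm28439 (of mt-Nd4) in the bottom row; each panel has its own scale. In the panels of mt-Co2, mt-Co3, Gm28661 and Gm28437 a few libraries hold nearly all counts, Gm28439 is high in 6 of 12 libraries, mt-Nd3 reaches 23 counts at most, and no library is high for both mt-Co3 and Gm28437.

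The 8 nuclear copies listed here had a summed level that did not overlap between the groups, though none was called. It was 12.1 to 36.1 CPM in the injured-sire group, 37.2 to 55.1 CPM in the uninjured-sire group and 86.9 CPM in replicate 16. Of the 4 that passed the filter, all had log2 fold changes below 0 and 0 were called by edgeR, with 2 at an unadjusted p under 0.05. Over all genes tested, 0.105% were called and 8.96% had an unadjusted p under 0.05. The sum rests in part on genes counted in single libraries, and Gm28661 had a higher mean in the injured-sire group (5.14 against 0.196 CPM) through replicate 12. Gm13340, a chromosome 2 gene that shares 27.5% of the 50-base words of mt-Co1, differed by -1.11 ± 0.289 on the log2 scale (SE, adjusted p = 0.236 in edgeR). The part of these copies in the mt-Rnr1 and mt-Ti results was not tested.

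Nuclear genes that run mitochondrial gene expression did not pass the test. Of 44 tested genes for transcription, processing and upkeep of mitochondrial DNA and RNA, edgeR called 0, with 21 higher and 23 lower and a median log2 fold change of -0.01. Over all genes tested, 0.105% were called. Against 8.96% of all genes, 3 of the 44 had an unadjusted p under 0.05. They were Gtpbp3, a tRNA-modifying enzyme (-0.26 ± 0.0913, SE, edgeR adjusted p = 0.349), Mgme1, a mitochondrial DNA exonuclease (-0.27 ± 0.104, adjusted p = 0.405), and Supv3l1, an RNA helicase of mitochondrial RNA decay (0.18 ± 0.0757, adjusted p = 0.450). The mitochondrial RNA polymerase Polrmt differed by 0.04 ± 0.0630 on the log2 scale and the transcription factor Tfam by 0.01 ± 0.0712 (SE). Both were named for their role, outside the naming rule and after their values were seen.

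Of 19 tested mitochondrial aminoacyl-tRNA synthetases, which charge the tRNAs, edgeR called 0, against 0.105% of all genes tested. Their log2 fold changes were above 0 for 7 and below 0 for 12, and the median was -0.01. Among all genes 49.9% were below 0. An unadjusted p under 0.05 was found for 1 of the 19, against 8.96% of all genes. The smallest p-values were those of Yars2 for tyrosine (-0.20 ± 0.0846, SE, edgeR adjusted p = 0.475), Lars2 for leucine (-0.87 ± 0.417, adjusted p = 0.588) and Rars2 for arginine (-0.12 ± 0.0873, adjusted p = 0.761). Lars2 ranged from 87.7 to 240 CPM in the injured-sire group and from 132 to 496 CPM in the uninjured-sire group. Iars2, the synthetase that charges mt-Ti, measured 109 ± 2.05 CPM (SD, n = 5) and 106 ± 3.03 CPM (SD, n = 6), and differed by 0.04 ± 0.0485 on the log2 scale (SE, adjusted p = 0.863 in edgeR). It too was named after its value was seen.

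Genes listed as markers of other cell types that a ventricle sample can carry varied beside these results. None of the listed markers was at 0 in all libraries, and edgeR called 0 of them. Over all genes tested, 0.105% were called and 8.96% had an unadjusted p under 0.05. All 7 tested fat markers had log2 fold changes above 0, with summed levels of 1120 to 1596 CPM against 834 to 1484 CPM. Most of this sum was Fabp4, at 923 to 1234 CPM against 745 to 1151 CPM. In uninjured-sire replicates 19 and 20, Fabp4 had 24920 and 34323 counts where Plin1, another listed fat marker, had 225 and 77. The sum is therefore not read as an amount of fat. Ucp1 measured 22.2 to 206 CPM against 1.86 to 133 CPM, and Adipoq 15.1 to 37.3 CPM against 2.60 to 34.3 CPM. All 6 tested airway and lung markers also had log2 fold changes above 0, at summed levels of 32.4 to 512 CPM against 0.772 to 314 CPM. All 5 erythroid markers had log2 fold changes below 0, at 2218 to 2945 CPM against 2513 to 3531 CPM, and 2 of them had an unadjusted p under 0.05. The skeletal muscle markers summed to 1852 to 2074 CPM and 1839 to 2233 CPM, and 1 of 4 tested had an unadjusted p under 0.05. Ckm alone made up nearly all of this sum, at 1743 to 2014 CPM and 1771 to 2161 CPM. This sum is therefore not read as an amount of skeletal muscle. Myh1, Myh2 and Myh4 had means of 0.850 to 2.54 CPM in the injured-sire group, mostly from replicate 14, and 0.101 to 0.123 CPM in the uninjured-sire group. Each of these ranges overlapped between the groups, and their part in the mt-Rnr1 and mt-Ti results was not tested.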

How the data were processed

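The deposited table holds raw counts per gene that the authors made with featureCounts 2.1.1, strand setting 2, on Ensembl release 114 of GRCm39, per the file headers. The header shows no option for read pairs, for reads that map to several places or for reads over several genes, so the last 2 kinds were not counted. The submitters' processing notes name STAR 2.7.10a and Subread 2.0.3. A further 11 columns match none of the described samples and entered no step. Genes were tested in R 4.3.3 with edgeR 4.0.16: filterByExpr (minimum count 10, minimum total 15), TMM factors, a two-sided quasi-likelihood F test (robust), and Benjamini-Hochberg adjustment over 17130 genes, threshold 0.05. CPM are counts per 1e6 after TMM scaling, and those of replicate 16 come from the scaling of all 12 libraries. Shares and ratios use raw counts.

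Members and gene lists were chosen with earlier results of these data known. Values in every library are given for called members, their neighbours, both rRNAs, the highest tRNA and protein gene per kb, mt-Nd6, mt-Co2, mt-Co3 and the 3 largest fold changes, and from each nuclear list the 3 smallest p-values. Alternatives used limma 3.58.1 and DESeq2 1.42.0. Copies were found by exact shared words of 50 bases among GENCODE M21 transcripts and aligned with edlib. That release is on another build of the nuclear genome, so positions of nuclear genes are those of the counted file.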

Additional observations from a re-analysis of the deposited data

Results flagged for a closer look

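Of 66 groups of values checked for a single library far from the rest, 2 had one, and chance alone flags about 1 in 20. mt-Co2 in uninjured-sire replicate 20 stood at 21.8 CPM, with the next library at 5.98 CPM. The share of all counts taken by mitochondrial genes in uninjured-sire replicate 21 was 16.5%, with the next library of its group at 18.5%. Without replicate 21, mt-Rnr2 also passed the threshold (edgeR adjusted p = 0.0494).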

How the results depend on the processing

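The count of mitochondrial genes past the threshold was 2, and the choices of library, scaling and test moved it. It was 0 with all 12 libraries, 0 relative to the summed mitochondrial counts, 1 (mt-Ti) with limma voom, 3 (mt-Rnr1, mt-Rnr2 and mt-Ti) with the DESeq2 Wald test and 4 without a filter (mt-Rnr1, mt-Rnr2, mt-Ti and mt-Nd2). With each library left out in turn it was 1 to 3. Without injured-sire replicate 13 or 14 only mt-Ti passed, and without uninjured-sire replicate 21 mt-Rnr2 passed as well. Over all genes, 18 of 17130 passed, against 130 with the DESeq2 Wald test, 236 of 38125 without a filter, 49 at a threshold of 0.1 and 8 to 43 with a library left out. The log2 fold change of mt-Ti ran from -0.64 to -0.49 over all 24 alternatives and that of mt-Rnr1 from -0.47 to -0.32, with no change of sign. With a library left out, mt-Ti passed in 11 of 11 fits (edgeR adjusted p 0.00287 to 0.0424) and mt-Rnr1 in 9 of 11 (0.00305 to 0.0621). The count of nuclear genes of mitochondrial expression past the threshold was 0 under each of these alternatives.

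Signs changed for genes near 0 and for mt-Co3, which was at -0.67. Relative to the summed mitochondrial counts, log2 fold changes were 0.0539 for mt-Nd1, 0.0249 for mt-Co1, 0.0488 for mt-Nd5 and 0.0175 for mt-Cytb. With all 12 libraries they were 0.0411 for mt-Nd1 and 0.101 for mt-Nd6. Without a filter mt-Tm was at -0.00932, and with limma voom mt-Co3 was at 1.34. Over fits with a library left out, values ran from -0.0509 to 0.0173 for mt-Nd1, -0.0656 to 0.157 for mt-Tq, -0.0692 to 0.0610 for mt-Tm, -0.0882 to 0.0034 for mt-Nd5 and -0.115 to 0.534 for mt-Tt. As a share of mitochondrial instead of all counts, the injured-sire mean minus the uninjured-sire mean was -1.09 percentage points for rRNA (-0.251 of all counts), -0.0164 for tRNA (-0.00355) and 1.10 for protein genes (-0.542). The cause of these changes was not tested. No paired analysis was possible because no replicate number occurs in both groups.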
